A study of Mus musculus with 9 samples.

Results

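The microRNA loci Mir212, Mir128-1, Mir1264, Mir3098, Mir34a, Mir107, Mir29a and Mir582 of the mouse are described here as measured in the anterior cingulate cortex after ketamine or sleep deprivation. They are 8 of the 478 microRNA genes and of the 22180 genes that had a probe set naming a single gene, and they were chosen by the small unadjusted p-values they had in the comparisons of these same arrays. Mir212, Mir128-1, Mir1264 and Mir107 lay further from saline after ketamine, and shifted the same way, by less, after sleep deprivation. Mir29a and Mir582 stand out on the side of sleep deprivation. Mir3098 was low and Mir34a high after either treatment. Because the arrays that chose the loci are the arrays described, the differences of the 8 loci are given as measured values, and any p-value or rank printed for them restates the choice and tests nothing.

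C57BL/6J mice, an inbred laboratory strain, gave total RNA of the anterior cingulate cortex for 9 Affymetrix arrays, 3 biological replicates per group. Mice labelled KT received ketamine, an antagonist of NMDA receptors for glutamate, at 3 mg/kg i.p. at ZT5, where ZT counts hours from lights on. Mice labelled SD were kept awake by a slowly turning bar from ZT0 to ZT12, and no injection is listed for them, so deprivation and the lack of an injection cannot be told apart in any difference between SD and another group. Saline mice were injected i.p. at ZT5 with saline. All brains were taken at ZT13, which is 8 h after the injections and 1 h after the end of deprivation. The labels describe no genetic change, and no age or sex is used here.

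MicroRNAs are short RNAs cut from a hairpin that lies within a longer primary transcript, by Drosha in the nucleus and Dicer in the cytoplasm. A mature microRNA is loaded into an Argonaute protein and pairs with messenger RNAs mainly through its seed, the stretch that starts at its second base, which lowers the stability or translation of the target. In cortical neurons microRNAs are known for shaping dendrites, synapses and excitability, and several of their primary transcripts are made in response to activity. A microRNA hairpin inside an intron is often transcribed with the gene that holds it, called its host.

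The mature sequences below are the products most often studied of each locus, from RefSeq (GRCm38.p6), written 5′ to 3′ with the seed, bases 2 to 8, in capitals. They are shown because the seed decides which other loci on the array belong to the same family and which targets can be looked up.
miR-212-3p, chr11:75173443-75173464, plus strand: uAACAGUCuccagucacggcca
miR-128-3p, chr1:128202404-128202424, plus strand: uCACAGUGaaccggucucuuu
miR-1264-3p, chrX:147010655-147010676, plus strand: cAAAUCUUauuugagcaccugu
miR-3098-5p, chr6:125195807-125195828, plus strand: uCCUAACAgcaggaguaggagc
miR-34a-5p, chr4:150068473-150068494, plus strand: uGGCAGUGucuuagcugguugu
miR-107-3p, chr19:34820700-34820722, minus strand: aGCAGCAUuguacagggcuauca
miR-29a-3p, chr6:31062673-31062694, minus strand: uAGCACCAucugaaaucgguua
miR-582-5p, chr13:109324753-109324774, plus strand: aUACAGUUguucaaccaguuac

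No pair among these 8 seeds is the same, so the loci are not members of 1 family. By RefSeq, 4 of them lie inside a protein-coding gene, namely Mir128-1 in R3hdm1, Mir1264 in Htr2c, Mir107 in Pank1 and Mir582 in Pde4d. The other 4 overlap no annotated gene. Mir212 and Mir29a each have another microRNA close by, Mir132 at 204 bp and Mir29b-1 at 276 bp. Mature relatives from other loci share the seeds of miR-212-3p, miR-128-3p, miR-34a-5p, miR-107-3p and miR-29a-3p. Examples are shown here to set beside the sequences already given.
miR-132-3p: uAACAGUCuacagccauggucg
miR-103-3p: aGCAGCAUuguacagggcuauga
miR-29b-3p: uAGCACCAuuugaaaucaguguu
miR-29c-3p: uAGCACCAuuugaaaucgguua
miR-34b-5p: aGGCAGUGuaauuagcugauugu
miR-449c-5p: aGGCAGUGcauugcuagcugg
Counted from the 5′ end, miR-107-3p and miR-103-3p differ by the single substitution C22G, with the base of miR-107-3p written first. miR-29a-3p and miR-29c-3p differ by C10U, with the base of miR-29a-3p first. miR-212-3p differs from miR-132-3p at 5 of 22 positions and miR-29a-3p from miR-29b-3p at 4 of 22 compared positions. Mir128-1 and Mir128-2 give the same miR-128-3p.

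The array reads RNA from the locus and does not tell the mature microRNA from its hairpin or from the longer primary transcript. Per the labels the RNA was cleaned on an RNeasy Mini column, a step known to hold back little short RNA, and which form of RNA gave each signal was not tested. The hairpin of Mir29a (RefSeq, chr6:31062660-31062747, minus strand, 88 bases) shows the stretch concerned, with the miR-29a-5p and miR-29a-3p arms in capitals.
Mir29a hairpin: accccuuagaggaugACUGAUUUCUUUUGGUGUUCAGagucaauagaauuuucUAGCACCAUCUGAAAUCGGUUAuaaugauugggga

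Signal strength separates the 8 loci into 3 bright and 5 dim ones. Mean intensity over the 9 arrays had a median of 129 over all genes and 60.1 over the 478 microRNA genes. Odorant, vomeronasal, taste and trace amine receptor genes, 1443 genes that serve the sensing of chemicals and are thought silent in cortex, had a median of 29.4, with their middle 50% between 15.6 and 53. Mir212, Mir128-1 and Mir107 lay above 99.8%, 99.9% and 97.9% of those receptor genes. Mir3098, Mir34a and Mir29a lay above 61.1%, 62.3% and 61%, and Mir1264 and Mir582 above 36% and 32.8%, so all 5 lay inside the middle range of genes thought silent. No ratio of group means is given for these 5, since their signals are not clear of that background. Probes differ in how strongly they bind, so these shares show how far a signal stands from the floor of the array and do not rank the amounts of the RNAs.

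Array medians lay between 97.7 and 106.2 and arrays of 1 group correlated at 0.986 to 0.995 across genes. Markers of excitatory neurons, the main cell type of cortex, were bright throughout, and Slc17a7, the vesicular glutamate transporter gene, read 2811 to 2965 in KT, 2693 to 2840 in SD and 2691 to 2900 in saline. Differences are of log2(intensity + 16) ± SE from 1 limma fit of all 9 arrays, with 3 arrays per group. The offset of 16 sets the size of a difference at dim loci: with an offset of 1 Mir29a was at 1.35 in SD minus saline and Mir1264 at -1.07 in KT minus saline, and with 64 they were at 0.51 and -0.28. In bulk tissue, fewer cells of a type and less RNA per cell cannot be told apart.

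**Figure D1:**
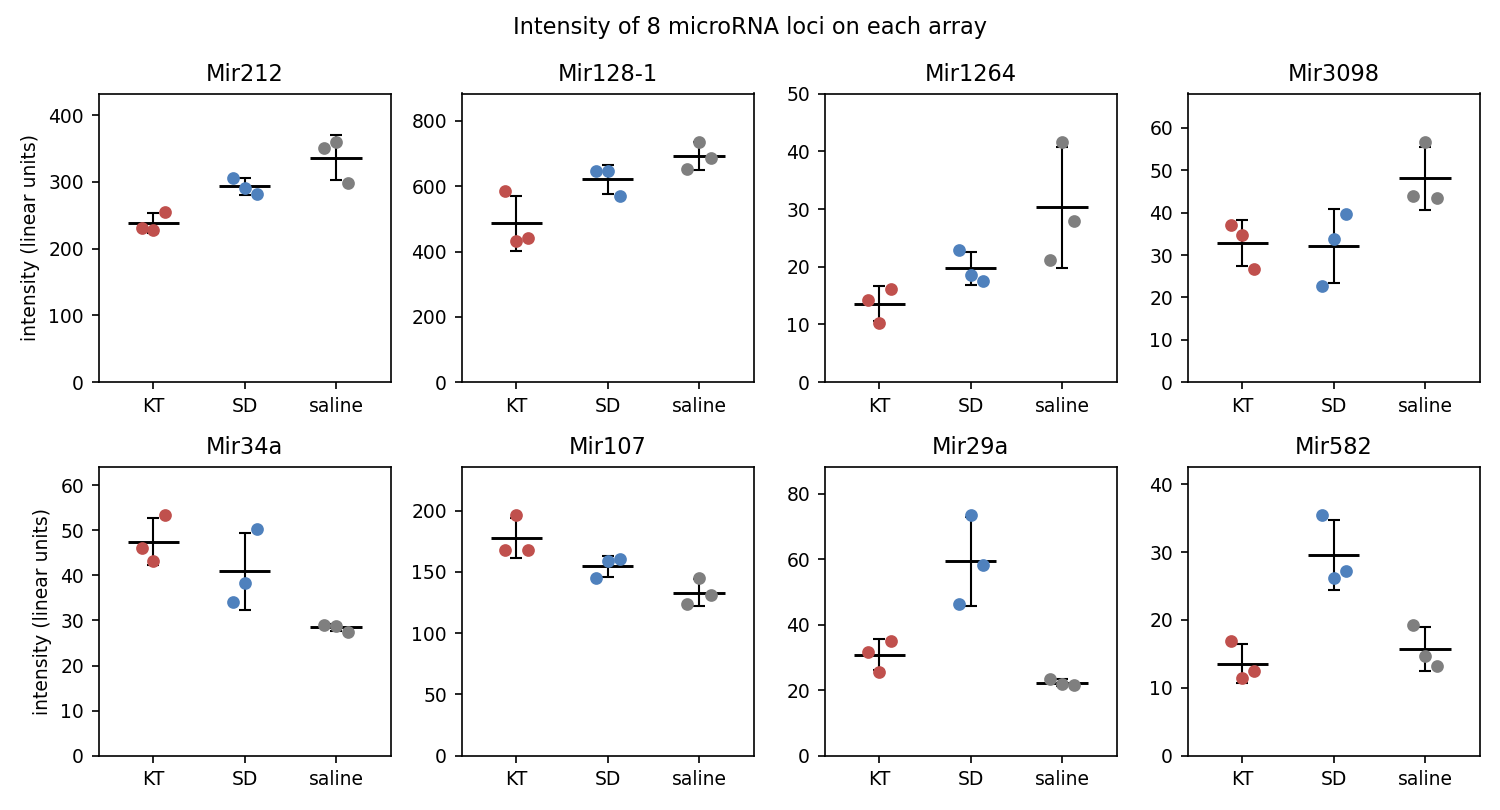
Intensity in linear units of the 8 microRNA loci on each array, with KT, SD and saline from left to right. Points are arrays, the long bar is the group mean and the error bar the standard deviation of 3 arrays. Mir29a stands between 46.4 and 73.5 in SD, above all KT and saline arrays, and Mir212 between 228 and 255 in KT, below all SD and saline arrays.

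Mir212 was lower after ketamine than in either other group. It lies with Mir132 in a small cluster whose primary transcript is known to be induced by the transcription factor CREB in active neurons, and its products act on dendrites and synapses. Intensity (probe set 17252878) was 232, 228 and 255 in KT, 307, 291 and 282 in SD, and 351, 360.4 and 298 in saline. All KT arrays lay below all SD arrays and below all saline arrays, while SD and saline overlapped. Group means were 238 ± 14.6 in KT, 293 ± 12.3 in SD and 337 ± 33.4 in saline (standard deviation, n = 3 each). The KT mean was 0.708 of the saline mean and the SD mean 0.872 of it, with log2 differences of -0.47 ± 0.10 for KT minus saline, -0.19 ± 0.10 for SD minus saline and -0.28 ± 0.10 for KT minus SD.

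Mir132, 204 bp from Mir212 and with the same seed, did not follow it. Its intensity was 35.3, 23.8 and 45.4 in KT, 40.1, 49.8 and 36.5 in SD, and 29.3, 36.1 and 33.7 in saline. SD lay above saline on every array and KT overlapped both. The log2 difference was 0.03 ± 0.14 in KT and 0.24 ± 0.14 in SD against the shared saline arrays, with limma's adjusted p at 0.968 and 1. Pearson's r between Mir212 and Mir132 over the 9 arrays was 0.119, and the Mir132 probe set is as dim as those of the sensory receptor genes. Hic1, the gene on the other side, was at 0.09 ± 0.10 in KT and -0.18 ± 0.10 in SD.

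Mir128-1 had the brightest probe set of the 8 loci and was also lower after ketamine. Its product miR-128-3p is abundant in neurons and is known to restrain neuronal excitability and motor activity in mice. Intensity (probe set 17216868) was 584, 432 and 442 in KT, 648, 646 and 569 in SD, and 651, 736 and 687 in saline. KT replicates 2 and 3 lay far below the rest, KT replicate 1 lay inside the SD range, and both treated groups lay below every saline array. The means were 486 ± 85.1 in KT, 621 ± 45.1 in SD and 691 ± 42.8 in saline (standard deviation, n = 3 each), and the KT mean was 0.703 of the saline mean. The log2 difference was -0.51 ± 0.12 for KT minus saline, -0.15 ± 0.12 for SD minus saline and -0.35 ± 0.12 for KT minus SD. Without SD replicate 3, SD minus saline was -0.09.

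The host gene R3hdm1, which encodes an RNA-binding protein, moved less than the hairpin it holds, at -0.12 ± 0.10 in KT and -0.00 ± 0.10 in SD against saline (limma adjusted p = 0.87 and 1). Mir128-1 was chosen for small p-values and R3hdm1 was not, so the choice itself favours a smaller difference in the host. Its r with Mir128-1 over the 9 arrays was 0.66. Ubxn4 and Zranb3, the genes on either side, were at -0.12 ± 0.10 and -0.11 ± 0.10 in KT. Mir128-2, which sits on another chromosome and yields the same miR-128-3p, read 112, 111 and 69.1 in KT, 149.7, 143 and 101 in SD, and 99.5, 106 and 99.2 in saline. The groups of Mir128-2 overlapped in each comparison, and its differences from saline were -0.08 ± 0.16 in KT and 0.31 ± 0.16 in SD (adjusted p = 0.936 and 1).

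Mir1264 is the locus with the largest log2 difference between KT and saline among the 8 and is also one of the 2 dimmest. It lies with Mir1912 and Mir764 inside Htr2c, the gene of the serotonin 2C receptor, and its function is little known. Intensity (probe set 17538433) was 14.3, 10.2 and 16.1 in KT, 23, 18.5 and 17.6 in SD, and 21.2, 41.7 and 27.9 in saline. KT lay below every array of the other groups, SD and saline overlapped, and saline replicate 2 stood well above all others. Means were 13.6 ± 3.03 in KT, 19.7 ± 2.87 in SD and 30.3 ± 10.4 in saline (standard deviation, n = 3 each), with log2 differences of -0.63 ± 0.14 for KT minus saline, -0.35 ± 0.14 for SD minus saline and -0.27 ± 0.14 for KT minus SD. Without saline replicate 2 the differences from saline were -0.46 in KT and -0.18 in SD.

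Mir1912 and Htr2c were also highest on that saline array, and Mir764 was not. Mir1912, 1074 bp away, read 64.8, 63.8 and 74 in KT, 60.2, 72.8 and 67.7 in SD, and 79.2, 108.7 and 77.6 in saline, so that both treated groups lay below every saline array. Its differences were -0.31 ± 0.12 in KT and -0.32 ± 0.12 in SD, with unadjusted p-values of 0.02 and 0.0163 and limma adjusted p-values of 0.87 and 1. Without saline replicate 2 they were -0.18 and -0.19. Over the 9 arrays Mir1912 had r = 0.798 with Mir1264, the highest among Mir1264's annotated neighbours. Htr2c itself read 219, 203 and 193 in KT, 173, 224 and 179.5 in SD, and 193, 294 and 198 in saline, with overlapping groups and differences of -0.12 ± 0.14 and -0.21 ± 0.14, which were 0.06 and -0.03 without saline replicate 2. Mir764, 8235 bp away, was at 0.06 ± 0.11 and -0.05 ± 0.11. Mir1298, 54219 bp away, went in the opposite direction to Mir1264, at 0.42 ± 0.13 in KT and 0.14 ± 0.13 in SD. In KT every array of Mir1298 lay above every saline array (limma unadjusted p = 0.00682, adjusted p = 0.87). Whether Mir1298 also lies in Htr2c was not looked up.

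Htr2c is strongly transcribed in the choroid plexus as well as in neurons, and Ttr and Kl, 2 choroid plexus markers, stood out in the same saline array. Of 8 such markers 7 were measured, 0 of them near 0, and their summed intensity was 734 to 1063 in KT, 552 to 1039 in SD, and 656 to 9485 in saline, where Ttr made up most of the highest sum. Ttr, which encodes transthyretin and is a hallmark of the choroid plexus, read 207, 467 and 139 in KT, 89.5, 104 and 428 in SD, and 1624, 8428 and 109.5 in saline. Kl, another choroid gene, read 587 in saline replicate 2 and between 113 and 139.6 on all other arrays. Otx2, Aqp1, Clic6 and Foxj1 did not stand out in saline replicate 2, at 87.2, 83.5, 78.7 and 72.6, within the range of the other arrays, and Folr1 read 149 there and 94.5 to 144.5 elsewhere. Mir1264 read 21.2, 41.7 and 27.9 in saline replicates 1, 2 and 3, where Ttr read 1624, 8428 and 109.5. The part of these cells in the Mir1264 values was not tested.

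**Figure D2:**
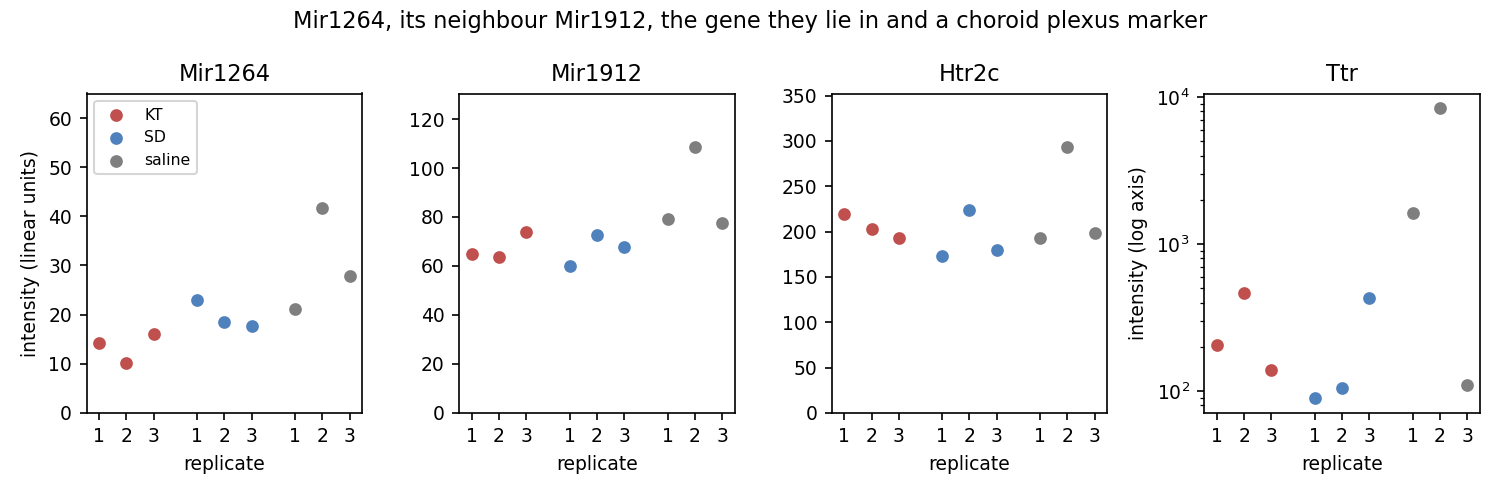
Intensity on each array of Mir1264, of Mir1912 1074 bp away, of Htr2c that holds both, and of Ttr, a choroid plexus marker on a log axis. The x axis gives the replicate number and the colours KT, SD and saline from left to right. Saline replicate 2 is the highest array in all 4 panels, at 41.7 for Mir1264 and 8428 for Ttr.

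Mir3098 had lower values after both treatments. It was found by sequencing and little is known of its function. It lies between Mrpl51, a mitochondrial ribosomal protein gene 1400 bp away, and Vamp1, which encodes a synaptic vesicle protein, 19703 bp away. Intensity (probe set 17463148) was 37, 34.6 and 26.7 in KT, 22.6, 33.8 and 39.8 in SD, and 43.9, 56.8 and 43.6 in saline. Neither treated group overlapped saline, and the KT arrays lay inside the SD range. Means were 32.8 ± 5.42 in KT, 32.1 ± 8.72 in SD and 48.1 ± 7.54 in saline (standard deviation, n = 3 each). The log2 differences from the shared saline arrays were -0.39 ± 0.14 in KT and -0.42 ± 0.14 in SD, and KT minus SD was 0.03 ± 0.14. Without SD replicate 1 the SD difference was -0.28 and KT minus SD was -0.12. Mrpl51 was at -0.13 ± 0.14 in KT and 0.01 ± 0.14 in SD, and Vamp1 at -0.10 ± 0.14 and -0.06 ± 0.14.

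Mir34a had higher values after both treatments. miR-34a is a direct product of the p53 response and is known to lower Sirt1, Notch ligands and synaptic genes. Intensity (probe set 17421865) was 46, 43.2 and 53.4 in KT, 34, 38.3 and 50.3 in SD, and 29, 28.9 and 27.4 in saline. Every treated array lay above every saline array, and the saline arrays had a standard deviation of 0.872 around their mean of 28.5. The KT mean was 47.5 ± 5.26 and the SD mean 40.9 ± 8.46 (standard deviation, n = 3 each). Log2 differences were 0.51 ± 0.11 for KT minus saline, 0.35 ± 0.11 for SD minus saline and 0.17 ± 0.11 for KT minus SD, where the treated groups overlapped. Without SD replicate 3, SD minus saline was 0.23.

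Mir34b, Mir449a and Mir449c, the other loci found here by the miR-34a seed, gave no common pattern. Mir34c and Mir449b, named like these loci, were not returned by that lookup, which does not show that they lack the seed. Against saline Mir34c was at -0.09 in KT and 0.04 in SD, and Mir449b at 0.10 and -0.05. Mir34b read 86.5, 101 and 96 in KT, 127, 82.3 and 105 in SD, and 114, 118 and 100.2 in saline, with differences of -0.19 ± 0.13 and -0.08 ± 0.13 from saline. Mir449a was at 0.06 ± 0.13 and 0.01 ± 0.13. Mir449c read 142, 145 and 165 in KT, 111, 109 and 128 in SD, and 125, 140.1 and 133 in saline, and differed by 0.34 ± 0.10 between KT and SD (unadjusted p = 0.00396, limma adjusted p = 0.388). H6pd and Gpr157, the genes on either side of Mir34a, lay between -0.03 and 0.07 in both comparisons with saline.

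Mir107 was the bright locus with higher values. It lies inside Pank1, which encodes a pantothenate kinase of coenzyme A synthesis, and the miR-103 and miR-107 pair is known for regulating metabolism and Dicer itself. Intensity (probe set 17364163) was 168, 196 and 168 in KT, 145, 159 and 160.2 in SD, and 124, 145 and 131 in saline. KT lay above every SD and saline array, and 1 SD array and 1 saline array shared the value 144.9. Means were 178 ± 16.3 in KT, 154.5 ± 8.43 in SD and 133 ± 10.9 in saline (standard deviation, n = 3 each), and the KT mean was 1.33 times the saline mean. The log2 differences were 0.38 ± 0.10 for KT minus saline, 0.19 ± 0.10 for SD minus saline and 0.18 ± 0.10 for KT minus SD.

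Pank1 did not show the pattern of Mir107. It read 227, 187 and 148 in KT, 189, 262 and 204 in SD, and 217, 207 and 227 in saline, with differences of -0.21 ± 0.14 and -0.00 ± 0.14 from saline and r = -0.33 with Mir107 over the 9 arrays. Mir103-1 and Mir103-2, whose shared product differs from miR-107-3p only by C22G, lie on other chromosomes. Mir103-1 was at 0.40 ± 0.20 in KT and -0.03 ± 0.20 in SD, from readings between 6.01 and 32.5. Mir103-2 was at -0.12 ± 0.14 and -0.33 ± 0.14, the second with an unadjusted p of 0.0337 and a limma adjusted p of 1.

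Mir29a had the largest log2 difference of the 8 loci, after sleep deprivation. The miR-29 family is known for lowering collagens and other matrix genes, DNA methyltransferases and pro-apoptotic genes, and it rises as neurons mature. Intensity (probe set 17465601) was 31.8, 25.6 and 35 in KT, 46.4, 73.5 and 58.3 in SD, and 23.5, 22 and 21.5 in saline. The 3 groups were fully separated, with SD highest, KT between and saline lowest. Means were 30.8 ± 4.76 in KT, 59.4 ± 13.6 in SD and 22.3 ± 1.01 in saline (standard deviation, n = 3 each). Log2 differences were 0.28 ± 0.12 for KT minus saline, 0.96 ± 0.12 for SD minus saline and -0.68 ± 0.12 for KT minus SD.

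Mir29b-1, on the same strand 276 bp away and thought to share its primary transcript, was barely measurable. It read 2.47, 1.42 and 2.18 in KT, 7.86, 9.75 and 4.32 in SD, and 5.62, 2.76 and 3.87 in saline, all below the 15.6 that marks the dimmest 25% of the sensory receptor genes. SD was the highest group here too, but SD and saline overlapped. In KT the direction was opposite to Mir29a, since every KT array of Mir29b-1 lay below every saline array. The differences of Mir29b-1 were -0.15 ± 0.10 in KT, 0.21 ± 0.10 in SD and -0.36 ± 0.10 for KT minus SD. For KT minus SD its unadjusted p was 0.00367 and the limma adjusted p 0.379. Its r with Mir29a was 0.659 over the 9 arrays. Klf14, the next gene on the other side, was at 0.13 ± 0.11 and 0.12 ± 0.11.

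Mir582 was higher after sleep deprivation than in both other groups, which overlapped. It lies in Pde4d, the gene of a cyclic AMP phosphodiesterase. Intensity (probe set 17289790) was 16.9, 11.4 and 12.5 in KT, 35.4, 26.1 and 27.2 in SD, and 19.3, 14.7 and 13.2 in saline. Means were 13.6 ± 2.9 in KT, 29.6 ± 5.11 in SD and 15.7 ± 3.2 in saline (standard deviation, n = 3 each). Its log2 differences were -0.10 ± 0.11 for KT minus saline, 0.52 ± 0.11 for SD minus saline and -0.62 ± 0.11 for KT minus SD.

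Pde4d gave no such difference, at -0.06 ± 0.09 in KT and -0.10 ± 0.09 in SD against saline, with r = -0.365 with Mir582 over the 9 arrays. Of all genes, Vwf, which encodes the von Willebrand factor of endothelial cells, had the values most like those of Mir582 (r = 0.959 and Spearman's rho = 0.983 over the 9 arrays). It read 145, 126 and 132 in KT, 228, 162 and 202 in SD, and 155, 136 and 139 in saline. The 6 endothelial markers together summed to 1538 to 1894 in KT, 1890 to 2025 in SD and 1708 to 1880 in saline, and their part in the Mir582 values was not tested.

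**Figure D3:**
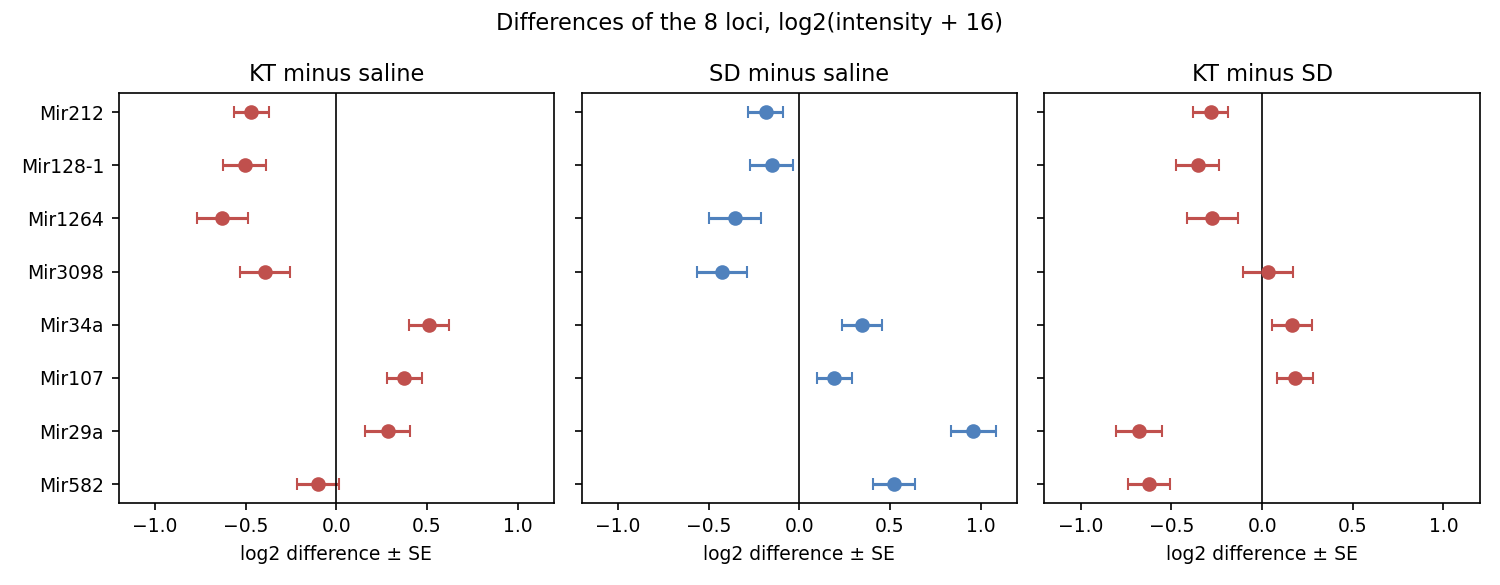
Differences of log2(intensity + 16) ± SE of the 8 loci for KT minus saline, SD minus saline and KT minus SD, from left to right. The 2 left panels share the saline arrays. Mir212, Mir128-1 and Mir1264 lie at -0.47 to -0.63 in the left panel, and Mir29a at 0.96 in the middle one.

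Set side by side, 3 loci had a higher and 5 a lower mean in KT than in saline. The KT and saline arrays did not overlap for 3 higher and 4 lower loci, where 6.48% of all 22180 genes were so separated upward and 7.89% downward, 14.4% in all. For SD against saline 4 loci were higher and 4 lower, and 3 higher and 2 lower ones were separated, against 3.57% of all genes upward and 3.54% downward, 7.11% in all. For KT against SD 3 were higher and 5 lower, and 1 higher and 4 lower ones were separated, against 4.53% and 5.54% of all genes, 10.1% in all. limma passed 0 of the 8 at adjusted p under 0.05 in each comparison (0% of all genes), with 7, 5 and 4 of them at unadjusted p under 0.05 in KT against saline, SD against saline and KT against SD, where 4.57%, 3.52% and 9.48% of all genes were. The smallest adjusted p among the 8 was 0.0558, for Mir29a in SD against saline. These counts describe how the loci were chosen and nothing more is read from them.

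Ranks among the 478 microRNA genes show where the choice fell. In KT against saline Mir212, Mir34a, Mir1264 and Mir128-1 ranked 1, 2, 3 and 4 by unadjusted p and Mir107 ranked 6. Mir140, a locus not among the 8, took rank 5 with 36.8, 30.2 and 37.4 in KT, 48.9, 47.8 and 44 in SD, and 55.3, 47.8 and 47.8 in saline (-0.39 ± 0.10). In SD against saline Mir29a and Mir582 ranked 1 and 2, Mir34a 8 and Mir3098 9. Mir3093, not among the 8, read 66.7, 61 and 86.1 in KT, 95.6, 88.2 and 82.6 in SD, and 60.3, 55.6 and 63.7 in saline (0.47 ± 0.11, limma adjusted p = 0.924). Mir302b (0.45), Mir145a (0.63), Mir466n (0.32) and Mir495 (0.42) were the other loci of small p in SD, and Mir452 (-0.32), Mir877 (0.39), Mir3066 (-0.40) and Mir1951 (0.32) those in KT, where the numbers are log2 differences from saline.

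MicroRNA genes as a class had a larger share of small p-values than all genes, a difference that was not tested. At unadjusted p under 0.05 there were 59 of 478 (12.3%) in KT against saline, 32 (6.69%) in SD against saline and 84 (17.6%) in KT against SD, beside 4.57%, 3.52% and 9.48% of all genes. Without the 8 loci the shares were 11.1%, 5.74% and 17%. The sensory receptor genes, which are also dim, stood at 7.69%, 7% and 13.6%. Without saline replicate 2 the share in KT against saline was 6.49% of microRNA genes and 2.05% of all genes. Without SD replicate 3 the microRNA share was 17.8% in SD against saline and 33.1% in KT against SD, beside 9.37% and 21.5% of all genes, and without SD replicate 1 it was 11.1% in KT against SD. The groups did not overlap for 17.8%, 7.74% and 11.9% of microRNA genes in KT against saline, SD against saline and KT against SD. Of all genes this held for 14.4%, 7.11% and 10.1%, a smaller gap than by p. These shares were added after the data were seen. At adjusted p under 0.05 limma passed 0 microRNA genes in each comparison, and 49.2%, 51.3% and 49.6% of the 478 had a positive difference, so the class had no common direction.

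**Figure D4:**
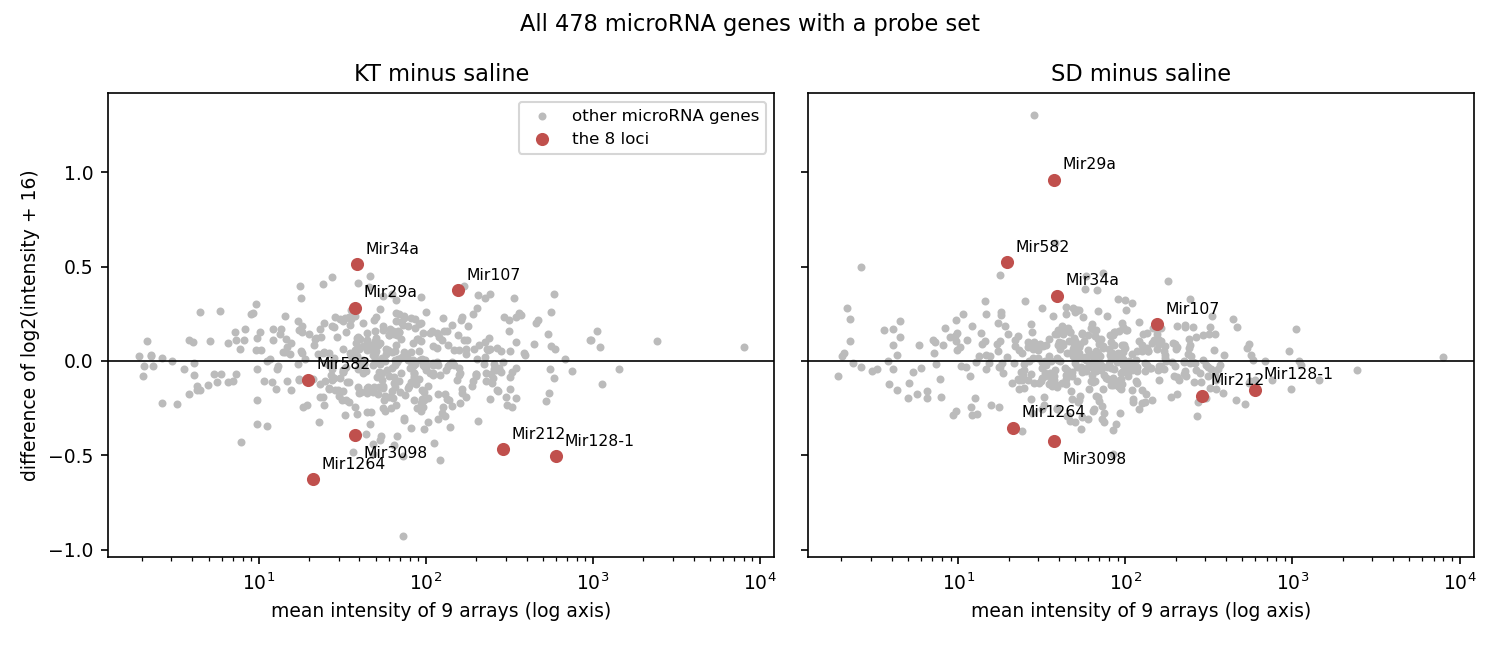
Mean intensity of 9 arrays (log axis) against the difference of log2(intensity + 16) for the 478 microRNA genes, KT minus saline on the left and SD minus saline on the right, with the 8 loci in red. Mir1264, Mir582, Mir29a, Mir34a and Mir3098 lie at the dim side and Mir212 and Mir128-1 at the bright side.

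Host genes, neighbours and same-seed loci were tested as genes of their own, since the choice of the 8 did not use their probe sets. Of 27 such genes limma passed 0 at adjusted p under 0.05 in any comparison, and the smallest adjusted p was 0.87 in KT against saline, 1 in SD against saline and 0.379 in KT against SD. At unadjusted p under 0.05 there were 2 genes (1 higher, 1 lower) in KT against saline, 3 (all lower) in SD against saline and 5 (3 higher, 2 lower) in KT against SD. Of all genes 2.21% were higher and 2.35% lower at that threshold in KT against saline, 1.8% and 1.72% in SD against saline, and 5.1% and 4.38% in KT against SD. None of the 4 hosts was among them in the comparisons with saline. Mir34c and Mir449b are not counted in the 27. The p-values of these tests do not show that hosts and hairpins behave alike or differently, since the difference between a hairpin and its host was not tested. The 8 loci were chosen by small p and the hosts were not, which by itself favours larger differences in the loci.

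**Figure D5:**
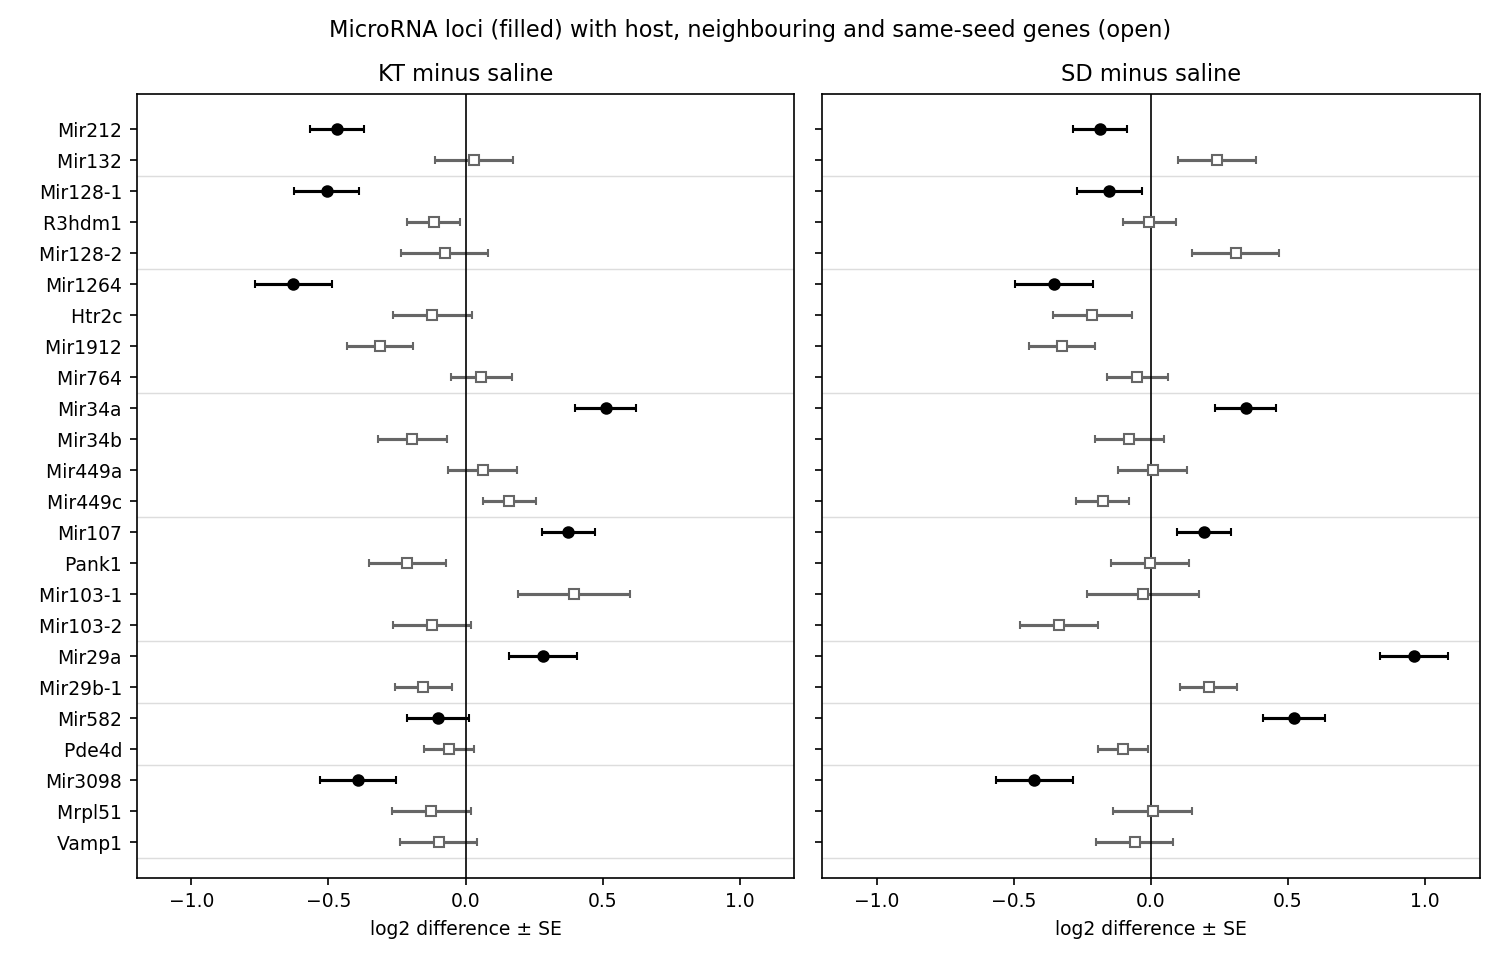
Differences of log2(intensity + 16) ± SE of the 8 loci (filled circles) and of their hosts, same-seed loci and some of their neighbours (open squares). KT minus saline is on the left and SD minus saline on the right, both against the same saline arrays. Mir1298 and Kif20b are among the neighbours not drawn. The hosts R3hdm1, Htr2c, Pank1 and Pde4d lie between -0.21 and -0.00, closer to 0 than Mir1264 and Mir128-1 on the left. The choice of the 8 loci by small p favours such a gap.

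Among the 8 loci the values of some moved together over the 9 arrays. Mir212 had r = 0.788 with Mir128-1, 0.843 with Mir1264 and -0.84 with Mir107, Mir34a had 0.775 with Mir107, and Mir29a had 0.74 with Mir582. These values share the arrays, the groups and the choice by group difference, so they are descriptions. The genes most like each locus over the 9 arrays were Gm14459 and Ssb for Mir212 (r = 0.971 and 0.929), Rcn2 and Sf3b1 for Mir128-1 (0.971 and 0.967), Adgrf2 and Pygo1 for Mir1264 (0.939 and 0.931), and Cast and Cabp1 for Mir3098 (0.946 and 0.944). For Mir34a they were Gm6249 and 1110019D14Rik (0.958 and 0.939), for Mir107 Vmn2r3 and Tgm7 (0.941 and 0.909), for Mir29a Tex2 and Olfr171 (0.957 and 0.954), and for Mir582 Vwf and Defa41 (0.959 and 0.945). Each is the best of 22180 genes over 9 arrays.

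Genes that make and use microRNAs had slightly lower values after ketamine. Of 27 measured members, among them Drosha, Dicer1 and the Argonaute genes, 26 were lower and 1 higher in KT than in saline, with a median of -0.08, where 54.6% of all genes were lower with a median of -0.02. In SD 12 were higher and 15 lower (median -0.01), where 53.4% of all genes were lower with a median of -0.01. All genes include many dim ones. Without genes of mean intensity under 83.5 the median of the remaining genes was -0.041 in KT and -0.004 in SD. Part of the lower median in KT was thus shared by the brighter genes. Neither this list nor those below were compared with genes of like intensity. limma passed 0 at adjusted p under 0.05, and at unadjusted p there was 1, Tut7, a uridylyl transferase that acts on microRNA precursors, at -0.26 ± 0.10 in KT (adjusted p = 0.87), where 4.57% of all genes were at that threshold. Ago2, which encodes the slicing Argonaute, read 642, 608 and 614 in KT, 757, 758 and 630 in SD, and 612, 656 and 657 in saline, and Dicer1 was at -0.19 ± 0.13 in KT and -0.02 ± 0.13 in SD.

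Literature targets of the families had small differences. Of all genes, dim ones included, 54.6% were lower in KT and 53.4% in SD than in saline. Their medians were -0.02 and -0.01, and -0.041 and -0.004 without genes of mean intensity under 83.5. The targets named were picked by small p. At unadjusted p under 0.05 limma called 4.57% of all genes in KT against saline and 3.52% in SD against saline. limma passed 0 of them at adjusted p under 0.05 in any comparison. Targets of miR-132 and miR-212 had medians of -0.09 in KT (8 of 11 lower) and -0.03 in SD (7 of 11 lower), and Btg2, an anti-proliferative gene, was at -0.42 ± 0.12 in SD (unadjusted p = 0.00348, adjusted p = 1). miR-128 targets were lower in KT in 10 of 10 (median -0.11) and in SD in 7 of 10 (median -0.05). Wee1, a cell cycle kinase, was at -0.25 ± 0.11 in KT, with adjusted p = 0.87. For miR-34 targets 15 of 19 were lower in KT (median -0.10) and 10 of 19 in SD (median -0.00).

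Targets of miR-103 and miR-107 had 7 of 10 lower in KT (median -0.02) and 4 of 10 lower in SD (median 0.04). Among all genes, dim ones included, 54.6% were lower in KT and 53.4% in SD. Genes left after removing those of mean intensity under 83.5 had medians of -0.041 in KT and -0.004 in SD. Klf4, a zinc-finger transcription factor on that list, read 133, 114 and 129 in KT, 156, 164 and 149 in SD, and 164, 154 and 165 in saline (-0.33 ± 0.09 for KT minus saline, adjusted p = 0.87). miR-29 targets had 18 of 24 lower in KT (median -0.04) and 7 of 24 lower in SD (median 0.04). The DNA demethylase gene Tet3 read 376, 383 and 384 in KT, 463, 557 and 461 in SD, and 345, 432 and 420.1 in saline, and Lamc1, a laminin gene, read 330.2, 279 and 257 in KT, 384.5, 404 and 343 in SD, and 353, 369 and 354 in saline. Tet3 was at 0.30 ± 0.11 in SD (adjusted p = 1) and Lamc1 at -0.30 ± 0.11 in KT (adjusted p = 0.87).

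Genes under the regulators known for 2 of the loci were set beside them. Of 12 CREB-induced genes, 11 were lower in KT than in saline with a median of -0.31, and 7 lower and 1 higher reached an unadjusted p under 0.05, against 2.35% and 2.21% of all genes, while 0 passed the adjusted test. Fos read 559, 535 and 629 in KT, 600.4, 629 and 540 in SD, and 803, 801 and 721 in saline. Sik1, a kinase gene, read 404, 358 and 399.8 in KT, 564, 638 and 450 in SD, and 493, 591 and 495 in saline, and Sst, a neuropeptide gene, was the 1 with a higher value in KT, at 0.23 ± 0.10. In SD 8 of the 12 were higher (median 0.03). Fos alone reached an unadjusted p under 0.05 by limma in SD. It was lower there, at -0.39 ± 0.10, beside -0.42 ± 0.10 in KT. At that threshold 1.72% of all genes were lower in SD. Among all genes, dim ones included, 54.6% were lower in KT and 53.4% in SD. The median without genes of mean intensity under 83.5 was -0.041 in KT and -0.004 in SD. These lists hold genes already seen to be low in these arrays and are no independent evidence about Mir212.

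Of 18 measured p53 targets, 12 were lower and 6 higher in KT (median -0.04), and 9 were lower and 9 higher in SD (median 0.00), beside the higher Mir34a in both. Among all genes, dim ones included, 54.6% were lower in KT and 53.4% in SD. With genes of mean intensity under 83.5 left out, the median of the rest was -0.041 in KT and -0.004 in SD. Cdkn1a, the cell cycle inhibitor gene, read 351, 296 and 306 in KT, 567.5, 633 and 440 in SD, and 353, 342 and 380.3 in saline, with differences of -0.17 ± 0.12 in KT and 0.57 ± 0.12 in SD (adjusted p = 0.87 and 0.835). limma passed 0 members at adjusted p under 0.05 in each comparison, with 1 lower in KT at unadjusted p under 0.05 (Trp53inp1, -0.29 ± 0.09) and 1 higher and 1 lower in SD, Cdkn1a and Btg2, where 2.35% of all genes were lower in KT and 1.8% higher and 1.72% lower in SD.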

How the data were processed

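Per the submitters' processing notes, the authors made the values with Affymetrix Expression Console 1.1.1 and PLIER 2.0, which summarises each probe set. What they deposited is linear intensity for 41345 probe sets on 9 arrays. Background correction, normalization and build: not given in the sources used here. Of the probe sets 23521 had 1 gene symbol in the platform annotation, 1814 several and 16010 none, and 23328 of the first kind matched RefSeq (GRCm38.p6). The brightest probe set stood for each of 1082 genes with several, giving 22180 genes. Probe sets with several genes, among them the one for Mir29b-2 and Mir29c, were named for none.

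Intensities as deposited were used to compute log2(intensity + 16), so the log2 values are made here from the authors' intensities, and the offset understates the change of dim probe sets. One limma fit (version 3.58.1, R 4.3.3, lmFit and eBayes with contrasts, 6 residual degrees of freedom) held all 9 arrays and no block, with Benjamini-Hochberg adjustment over all genes at 0.05, and was tested on simulated data. Host, neighbour (microRNA genes within 10 kb and the nearest gene on each side), same-seed and likeness genes were named by fixed rules, and up to 5 genes of a list by their smallest p. The 8 loci, gene lists and tests were chosen with earlier results of these data known. With 3 arrays per group, their number limits the precision. The labels call the replicates biological, without saying that each is 1 mouse. The numbering of the arrays in the labels follows the groups, so array order and group cannot be told apart. No arrays held identical values (0 pairs). Alternatives were offsets of 1 and 64, array centring, quantile normalization, a filter on the dimmest genes, the mean of probe sets, limma-trend, array weights, a replicate block and leaving out each array.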

Additional observations from a re-analysis of the deposited data

How the results depend on the processing

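Every difference of the 8 loci with saline kept its sign under the 17 or 18 alternatives run for it, and KT minus SD did so for all but Mir3098, which kept it in 14 of 17. Of 417 alternative values 387 stayed within 1 residual standard deviation and on the same side of the threshold, 16 moved further and 14 passed it. The filter on dim genes removed 5 of the 8, which have no value under it. The 8 loci were chosen by these p-values, so their place at the threshold tests nothing. Mir29a was past it in SD against saline after centring, by limma-trend, and without SD replicate 1 or 2 (adjusted p from 0.00899 to 0.362 over the alternatives). Mir29a and Mir582 were past it in KT against SD without SD replicate 3 and with array weights, and with array weights Mir212, Mir128-1, Mir1264, Mir3098, Mir34a and Mir107 were past it in KT against saline. The weights gave KT replicate 2 a value of 7.92, against 0.348 to 2.08 for the other arrays.

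Counts of all genes depended on single arrays. At adjusted p under 0.05 array weights called 1439 genes in KT against saline and 42 in KT against SD; centring called 1 and limma-trend 3 in SD against saline; in KT against SD the filter called 5, limma-trend 15 and the offset of 64 called 14. Leaving out 1 array gave 0 to 0, 0 to 4 and 0 to 214 in KT against saline, SD against saline and KT against SD, the last without SD replicate 3. At unadjusted p under 0.05 the counts of 1013, 781 and 2103 became 6087, 1374 and 4151 with array weights. Without 1 array they ranged from 454 (saline replicate 2) to 1871 (KT replicate 1), from 571 to 2079 (SD replicate 3) and from 1110 (KT replicate 3) to 4763 (SD replicate 3). The cause was not tested. The labels state no pairing by replicate number. Deviations of same-numbered arrays correlated at -0.201 to 0.444, and those of differently numbered arrays at -0.514 to 0.536. These values do not settle whether arrays of the same number shared a batch. With the replicate block the adjusted counts were 0, 0 and 0 and the unadjusted ones 1254, 887 and 2457.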

Other observations

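The microRNA genes with the largest differences from saline were not among the 8 loci, and both were picked out after their values were seen. Mir101c was at -0.93 ± 0.34 in KT, with 23.4, 22.7 and 98.4 in KT, 58.8, 80.5 and 85.3 in SD, and 73.3, 68.1 and 144.6 in saline, so KT replicate 3 lay inside the saline range. Mir290a was at 1.31 ± 0.67 in SD, where SD replicate 1 read 226 and the other SD arrays 3.28 and 3.33, against 0.00522, 7.19 and 0.00943 in saline. A single array carries that difference, and limma's adjusted p was 1.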
